A study of Mus musculus with 45 samples.

Results

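The genes described here encode the ErbB receptor tyrosine kinases (Egfr, Erbb2, Erbb3 and Erbb4) and the growth factors that bind them (Areg, Ereg, Hbegf, Tgfa, Btc and Nrg1), 10 genes in all. Each gene was represented by the probe set with the highest mean among those annotated to its symbol alone, and 9 of the 10 genes had such a probe set, 1 each, out of 18820 genes in the table. Areg, which encodes amphiregulin, had none and is not analysed here. Expression was measured on single-colour Affymetrix arrays in 45 mammary tumours of BALB/c mice. Every tumour grew from Trp53-null mammary tissue that had itself not been irradiated. This tissue had been placed in the inguinal mammary fat pads of wild-type BALB/c females aged 10 weeks, which had lost their own mammary epithelium at 3 weeks of age and so kept the stroma of the gland. Of the tumours, 18 came from sham hosts, 9 from hosts that had received 10 cGy of Si ions, 10 from hosts at 30 cGy and 8 from hosts at 80 cGy, so that 27 tumours arose in irradiated hosts. Exposure took place 3 days before the transplantation, and tumours were collected at 1 cm3 within a follow-up of 600 days. The comparison between hosts asks whether an irradiated host goes with a different tumour.

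ErbB receptors signal as pairs. A ligand opens the extracellular part of its receptor, the receptors dimerise, and the kinase domains phosphorylate the tails that recruit Grb2, Shc1 and PI3-kinase. Erbb2 has no known ligand of its own and is the preferred partner of the others, whereas Erbb3 has a weak kinase and signals through its partner. Areg, Tgfa, Ereg, Hbegf and Btc bind Egfr, Ereg, Hbegf and Btc also bind Erbb4, and Nrg1 binds Erbb3 and Erbb4. The ligands are made as membrane proteins and are released by sheddases of the ADAM family. In the mammary gland this system takes part in ductal growth and milk production, and ERBB2 is amplified in a class of human breast cancer.

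Values are log2 expression after RMA, a normalisation that gives every array nearly the same distribution, so array medians lay between 5.48 and 5.80. A gene was tested across the groups if it exceeded the table median of 5.67 in at least 8 tumours, which held for 12123 genes. Of the 9 measured ErbB genes, 8 passed. Erbb4 exceeded the median in 5 tumours, so its values come from the fit without the filter and lie close to the low end of the table, where an array resolves differences poorly. The sample labels carry a short code, and 16 tumours share the body of their code in pairs. What the codes stand for is not stated, so some tumours may come from 1 host, and p-values measure the spread between these tumours. All 21 epithelial junction genes passed the filter, but their score (mean log2 value of the listed genes, each centred on its mean over the tumours) ran from -3.01 to 1.48. In 7 tumours the score of skeletal muscle or fat genes lay above 2. A division of the junction score into 2 sets by 2-means put 35 tumours in a larger set (13 sham, 8 at 10 cGy, 9 at 30 cGy and 5 at 80 cGy) and 10 in a smaller set of low score (5, 1, 1 and 3). Scores tailed off without a clean gap between the sets.

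Among the receptors, Erbb3 varied the most. Over the 45 tumours it ran from 4.42 through a median of 9.46 to 10.78, and its SD of 1.79 exceeded that of 98.8% of the genes tested. The measured range was 82.3-fold, but its low end is near the median of Erbb4, so the true size of the range is not resolved. The same limit holds for the ranges of Ereg, Tgfa, Btc, Hbegf and Nrg1, whose lowest tumours lay below the table median. The lowest value belonged to replicate 1 of the 10 cGy group and the highest to replicate 8 of the 30 cGy group, and low tumours occurred in all 4 groups. Sham tumours had a median of 9.04 (5.19 to 10.37) for Erbb3, beside 9.70 at 10 cGy (4.42 to 10.42), 9.40 at 30 cGy (5.53 to 10.78) and 9.18 at 80 cGy (4.96 to 10.05). The 4 groups covered nearly the same span.

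Egfr and Erbb2 were less variable. Egfr, the receptor for most of the ligands measured here, ran from 7.31 to 10.23 (7.57-fold) with an SD of 0.70. Its group medians were 8.62 for sham (7.60 to 10.23), 8.96 at 10 cGy (7.31 to 10.04), 9.04 at 30 cGy (7.81 to 9.32) and 8.61 at 80 cGy (7.51 to 9.67). The 3 highest tumours, replicates 9, 3 and 7 of the sham group, lay between 10.11 and 10.23. Erbb2 ran from 7.14 to 9.61 (5.53-fold) with an SD of 0.65, and no tumour stood far above the rest. Its median was 8.50 in sham tumours (7.40 to 9.13), 8.53 at 10 cGy (7.16 to 9.46), 8.55 at 30 cGy (7.14 to 9.61) and 8.41 at 80 cGy (7.77 to 9.44). The 5 highest Erbb2 tumours, at 9.41 to 9.61, were all from irradiated hosts, but the groups overlapped over most of their range.

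Erbb4, the neuregulin receptor tied to lactation in the normal gland, had a median of 4.61 and reached 6.92 in sham replicate 11 and 6.44 in sham replicate 18. Its median was 4.68 in sham tumours (4.07 to 6.92), 4.51 at 10 cGy (4.23 to 5.07), 4.83 at 30 cGy (4.18 to 5.84) and 4.39 at 80 cGy (4.25 to 5.12). The 10 and 80 cGy tumours all lay below the table median.

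**Figure D1:**
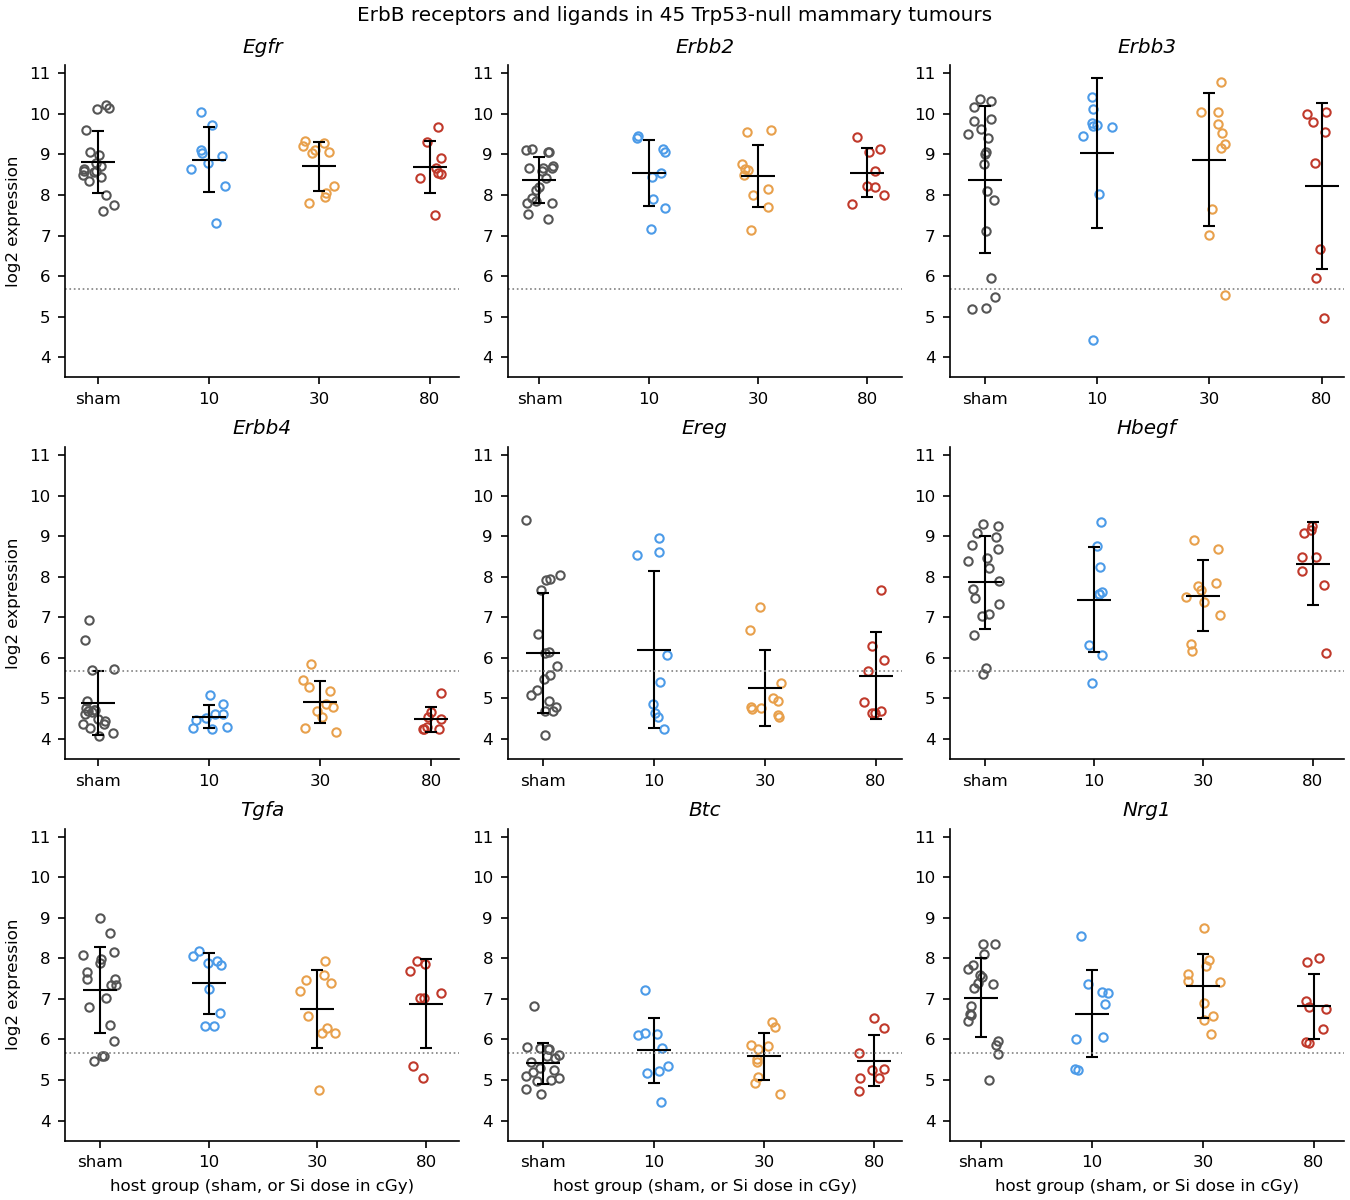
Log2 expression (y axis) of the 9 measured ErbB genes in each tumour (open circles) by host group (x axis), with the group mean and SD in black and the table median of 5.67 as a dotted line. The 4 groups overlap for every gene, and Erbb3 spreads from 4.42 to 10.78.

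Among the ligands, Ereg and Tgfa had the widest measured ranges, and Ereg and Hbegf the largest SDs. Ereg, which encodes epiregulin, ran from 4.09 to 9.40 (39.7-fold, SD 1.44), and its SD exceeded that of 96.8% of the genes tested. It lay above the table median in 19 tumours. Its median was 5.69 in sham tumours (4.09 to 9.40), 5.40 at 10 cGy (4.25 to 8.96), 4.85 at 30 cGy (4.54 to 7.25) and 5.30 at 80 cGy (4.63 to 7.68). The highest 5 tumours were sham replicates 7 and 6 and 10 cGy replicates 8, 9 and 5.

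Hbegf, the heparin-binding ligand of Egfr and Erbb4, ran from 5.39 to 9.36 (15.7-fold, SD 1.11). Its median was 8.05 in sham tumours (5.60 to 9.30), 7.57 at 10 cGy (5.39 to 9.36), 7.58 at 30 cGy (6.16 to 8.90) and 8.48 at 80 cGy (6.11 to 9.26). In the 80 cGy group 7 of 8 tumours lay at or above 7.81 and replicate 7 stood at 6.11. Tgfa, whose forced expression in the mouse gland gives tumours, ran from 4.75 to 9.00 (19.1-fold, SD 0.99). Its median was 7.41 in sham tumours (5.47 to 9.00), 7.84 at 10 cGy (6.33 to 8.19), 6.89 at 30 cGy (4.75 to 7.93) and 7.09 at 80 cGy (5.06 to 7.94). All 9 tumours at 10 cGy thus lay above the lowest 4 tumours of the sham group.

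Btc, which encodes betacellulin, was low, above the table median in 18 tumours, and ran from 4.45 to 7.22 (6.83-fold, SD 0.60). Its median was 5.38 in sham tumours (4.65 to 6.83), 5.80 at 10 cGy (4.45 to 7.22), 5.64 at 30 cGy (4.66 to 6.44) and 5.26 at 80 cGy (4.73 to 6.53). Nrg1, the neuregulin that binds Erbb3 and Erbb4, ran from 5.01 to 8.75 (13.4-fold, SD 0.93). Its median was 7.32 in sham tumours (5.01 to 8.35), 6.88 at 10 cGy (5.26 to 8.55), 7.43 at 30 cGy (6.14 to 8.75) and 6.77 at 80 cGy (5.92 to 8.00). For both ligands the groups overlapped throughout.

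None of the 9 ErbB genes differed between tumours of irradiated and sham hosts beyond the spread between tumours. In limma, with all 4 host groups in 1 model, the difference was the mean of the 3 doses minus sham. Among the receptors the log2 difference was -0.06 ± 0.22 (SE) for Egfr, 0.14 ± 0.20 for Erbb2, 0.33 ± 0.54 for Erbb3 and -0.24 ± 0.18 for Erbb4. Among the ligands it was -0.44 ± 0.42 for Ereg, -0.10 ± 0.33 for Hbegf, -0.21 ± 0.30 for Tgfa, 0.18 ± 0.18 for Btc and -0.11 ± 0.28 for Nrg1. The lowest adjusted p in limma was 0.926, for Ereg, and permuting single genes over tumours gave p between 0.225 (Erbb4) and 0.783 (Egfr). The 95% intervals show what could have been missed. They ran from -0.49 to 0.38 for Egfr and from -0.26 to 0.55 for Erbb2, but from -0.76 to 1.42 for Erbb3 and from -1.30 to 0.41 for Ereg.

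No ErbB gene was called at an adjusted p under 0.05, and 0 of 12123 genes were (0%). At an unadjusted p under 0.05 the ErbB count was also 0 of 9, against 5.82% of all genes. The same held for each dose against sham, where 0 of 9 ErbB genes had an unadjusted p under 0.05 against 3.65% of genes at 10 cGy, 4.45% at 30 cGy and 6.97% at 80 cGy. It held for the F test over the 4 groups too, with 0 of 9 against 4.13% of genes. The smallest unadjusted p in limma was 0.107 for Erbb4 at 80 cGy (-0.41 ± 0.25), followed by 0.127 for Ereg at 30 cGy (-0.85 ± 0.55). In order of group means, Erbb3 ran 9.04 at 10 cGy, 8.87 at 30 cGy, 8.38 in sham tumours and 8.22 at 80 cGy, and Hbegf ran 8.32 at 80 cGy, 7.86 for sham, 7.53 at 30 cGy and 7.43 at 10 cGy. In either order the neighbours that include sham did not differ beyond their spread, and 10 and 30 cGy were not compared with each other. The dose comparisons share the sham tumours.

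**Figure D2:**
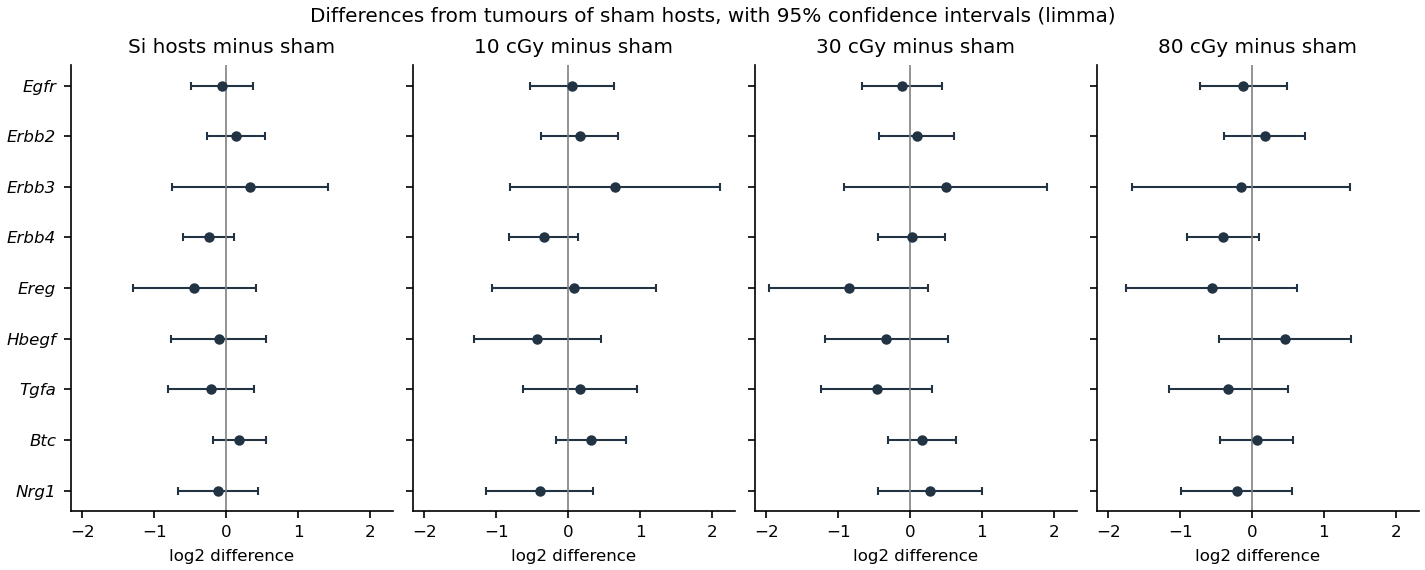
Log2 difference from sham tumours (x axis, points) for each ErbB gene (y axis) with its 95% confidence interval (bars), for all irradiated hosts and for each dose. Every interval includes 0, and the widest belong to Erbb3 and Ereg.

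The direction of several of these small differences turned on which sham tumours were used. The codes of 10 sham tumours start with 5 and those of 8 start with 6. Ereg averaged 6.76 ± 1.66 (SD) in the former and 5.32 ± 0.73 in the latter, and Egfr averaged 9.14 ± 0.79 and 8.41 ± 0.56. Set against the 8 sham tumours alone, the difference of irradiated hosts was 0.36 for Ereg and 0.35 for Egfr, the opposite sign. Each dose group has a code digit of its own, so a dose and whatever its digit stands for cannot be told apart.

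The rest of the pathway showed the same picture, with 0 genes called in any of its lists. The sheddase list holds ADAM genes together with Rhbdf1 and Rhbdf2. In irradiated against sham hosts, 0 of its 8 genes had an unadjusted p under 0.05, and the smallest belonged to Adam9 (0.17 ± 0.16). Of 2 other ligand genes that passed the filter, Epgn (epigen) had a difference of -0.29 ± 0.40. Among 23 transducers 0 were higher and 2 lower at that level, namely Pik3r2, a regulatory subunit of PI3-kinase (-0.35 ± 0.15), and the MEK gene Map2k2 (-0.18 ± 0.08), the second named after its value was seen. Among 19 negative regulators 1 was higher, the Sprouty gene Spry1 (0.30 ± 0.14, also named after its value was seen), and 1 lower, Rnf41 (-0.18 ± 0.07). Among 12 genes induced by ERK signalling, Ccnd1, which encodes cyclin D1, was the 1 higher (0.28 ± 0.13). Of the 5 genes listed for the Egfr region, of which Lancl2 and Vopp1 are not its neighbours in the mouse table, and the 7 around Erbb2 none reached that level. The smallest p belonged to Lancl2 in the former list (difference 0.14) and to Med1 in the latter (difference 0.14). The median differences of these lists lay between -0.09 and 0.08, beside 0.01 over all genes tested.

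Rnf41 encodes a ubiquitin ligase known to limit the amount of ErbB3 protein. Its lower values were found at 30 cGy, with a difference of -0.36 ± 0.09 and an unadjusted p of 0.000192 in limma (adjusted p = 0.682). Erbb3 itself differed by 0.49 ± 0.70 in the same comparison. At 80 cGy, 3 of the 19 negative regulators had higher values at an unadjusted p under 0.05 and 0 lower, where 6.97% of all genes passed in either direction. These were Dusp4 (1.09 ± 0.47), Spry1 (0.46 ± 0.20) and Errfi1 (0.47 ± 0.21), whose product MIG6 binds the Egfr kinase. Their adjusted p in limma was 0.689, 0.689 and 0.692, and the last 2 were named after their values were seen.

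Several ErbB genes varied together from tumour to tumour. All 36 pairs of the 9 measured genes were correlated over the 45 tumours (Pearson's r and Spearman's rho, 100000 permutations each, adjusted over the 36 pairs), and 10 pairs were called, with both adjusted p under 0.05. Of these, 7 were positive. Erbb3 and Erbb2 went with each other and each with Tgfa and Btc, Ereg went with Hbegf and Nrg1, and Hbegf ran against Erbb3, Erbb4 and Btc. The weakest called pair had an r of -0.37. Among the ErbB pairs 11 of 36 (30.6%) had an r at least that far from 0, one of which missed the call on rho, compared with 14.0% of the 73477503 pairs of genes tested.

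Erbb2 and Erbb3, the receptor pair that forms the strongest signalling dimer, had an r of 0.72 (rho 0.73, adjusted permutation p of 0.00018 for both, from a raw p of 1e-05, the smallest the permutations can give). Without the 2 tumours farthest from the median of Erbb2 the r was 0.68. Within the larger set by junction score it was 0.75, still called, and within the smaller set 0.58. Over deviations from the host group means it was 0.73. The r was thus above 0.5 on each of these divisions.

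Tgfa went with Erbb3 at an r of 0.70 (rho 0.63) and with Erbb2 at 0.45 (rho 0.47), with a highest adjusted permutation p of 0.00018 and 0.0138. These values fell to 0.42 and 0.24 in the larger set and to -0.07 and -0.06 in the smaller set, and neither pair was called in the larger set. The r of Tgfa with either receptor was thus larger over all tumours than within a set. Btc had an r of 0.43 with Erbb2 and 0.38 with Erbb3, and these calls were lost in 8 and 5 of the 45 fits that leave out 1 tumour.

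Ereg and Hbegf, ligands of Egfr and Erbb4, had an r of 0.58 (rho 0.59, adjusted permutation p of 0.00048 and 0.0006), 0.55 without the 2 farthest tumours and 0.64 over deviations from the group means. Within the larger set it was 0.61 and still called, and within the smaller set 0.27. Ereg also went with Nrg1 (r 0.42, rho 0.43), a call lost without 10 cGy replicate 8 (r 0.36). Egfr had an r of 0.47 with Ereg that was not called, since the adjusted p of rho was 0.083. Hbegf had negative r with Btc (-0.43), Erbb4 (-0.40) and Erbb3 (-0.37), the last of which was lost in 21 of the 45 fits that leave out 1 tumour. Of the 10 called pairs, 2 were called within the larger set, Erbb2 with Erbb3 and Ereg with Hbegf. With 1 tumour per code the call was lost for Btc with Erbb2, Erbb3 and Hbegf, for Hbegf with Erbb3 and for Ereg with Nrg1.

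Each gene was next set against the scores of 16 marker lists for cell types and tumour states, none of which holds an ErbB gene. Over the 144 relations of gene and list, 51 were called. No such count was made for all genes, and some called values were common among them. Of the other tested genes outside the list, 19.8% ran further against the junction score than Hbegf (r -0.36) and 15.2% exceeded Btc (0.37). Against the nerve list 16.5% ran further than Ereg (-0.37), whereas with the neutrophil list 0.74% exceeded Hbegf (0.69). Erbb3 followed the epithelial junction score almost linearly (r 0.96, rho 0.85, adjusted permutation p 0.00012 and 0.00024), and 5 of the 12101 other tested genes outside the list followed it more closely. The r was 0.80 in the larger set, where it was called, and 0.76 in the smaller set. In the 35 tumours of the larger set Erbb3 had a median of 9.69 (7.00 to 10.78), and in the 10 others 5.51 (4.42 to 7.11). It also followed the luminal list, which holds keratin genes and transcription factor genes such as Elf5, Foxa1 and Gata3 (r 0.88, larger set 0.54). Erbb3 ran against the mesenchymal list with Zeb1, Zeb2 and Twist1 (r -0.74, larger set -0.51). Both relations were called in the larger set too. In a bulk tumour piece, fewer epithelial cells and less Erbb3 RNA in each cell cannot be told apart.

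Erbb2 and Tgfa also had their highest r with the junction score, at 0.69 and 0.75. For Erbb2 the larger set gave 0.74, which was called, and the smaller set 0.61. Its median was 8.65 in the larger set (7.14 to 9.61) and 7.92 in the smaller set (7.16 to 8.22). For Tgfa the larger set gave 0.43, which was not called (adjusted permutation p of 0.121), and the smaller set 0.45. Its median was 7.48 in the larger set (6.15 to 9.00) and 5.59 in the smaller set (4.75 to 7.94), where the tumour at 7.94, 80 cGy replicate 1, had a skeletal muscle score of 3.91. Both genes had their lowest r with the mesenchymal list, -0.53 for Erbb2 and -0.64 for Tgfa, neither of them called in the larger set. Both genes, like Erbb3, were thus lower where junction genes were low.

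**Figure D3:**
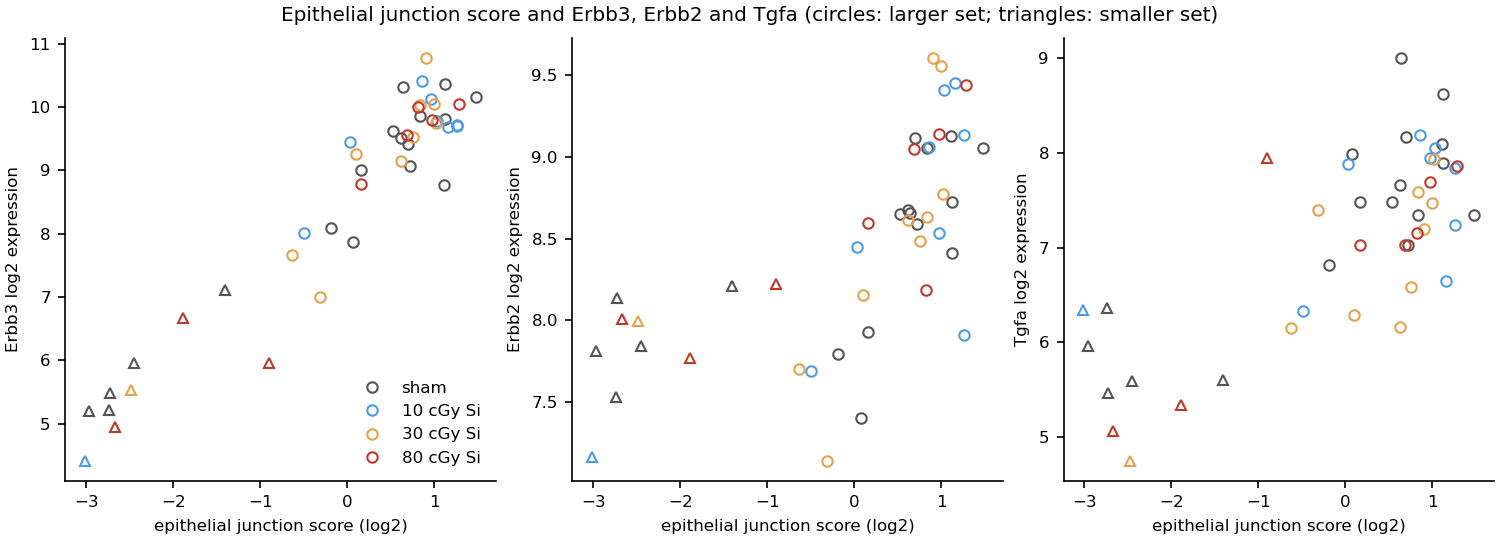
Log2 expression of Erbb3, Erbb2 and Tgfa (y axes) against the epithelial junction score of each tumour (x axis, mean centred log2), coloured by host group, with circles for the 35 tumours of the larger set and triangles for the 10 of the smaller set. Erbb3 climbs along the whole score, while Erbb2 and Tgfa scatter more widely.

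Egfr was not called with the junction score (r 0.11), and the r was -0.26 in the larger set, also not called, and 0.73 in the 10 tumours of the smaller set. It followed keratinising and basal genes. Its highest r was with the squamous and cornified list, whose 9 genes that passed the filter include Krt10, Krt6a and small proline-rich protein genes (r 0.54, rho 0.48, adjusted permutation p 0.00119 and 0.00561). The larger set gave the same r of 0.54 without a call and the smaller set 0.60. It also followed the basal and myoepithelial list (r 0.47, larger set 0.49, called in both) and the hormone receptor list (r 0.44). Its lowest r was with the cell cycle list (-0.37), a call lost in 32 of the 45 fits that leave out 1 tumour. Erbb4, at its low level, had its highest r with the basal list (0.54) and its lowest with the macrophage list (-0.62), the latter called in the larger set as well (-0.63).

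Hbegf followed the neutrophil list, which holds S100a8, S100a9 and Il1b, at an r of 0.69 (rho 0.70, adjusted permutation p 0.00012 and 0.00024). It was 0.65 without the 2 farthest tumours, 0.71 in the larger set, where it was called, and 0.10 in the smaller set. Its lowest r was with the hormone receptor list (-0.44), a call lost in 10 of the 45 fits that leave out 1 tumour. Ereg likewise had its highest r with the neutrophil list (0.54, rho 0.57, larger set 0.61 and called, smaller set 0.04), and its lowest with the nerve list (-0.37), which rests on 2 genes that passed the filter, Sox10 and Ngfr. That last call was lost without sham replicate 5 (-0.34), 6 (-0.34) or 10 (-0.34). The neutrophil score ran from -1.84 to 2.55 over the tumours, and whether the RNA of these ligands came from neutrophils was not tested.

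Btc had its highest r with the hormone receptor list (0.39, not called) and its lowest with the macrophage list (-0.39, a call lost without sham replicate 17, -0.33). Its r of 0.37 with the junction list was 0.54 in the larger set and called in both, and -0.38 in the smaller set. It was not called with 1 tumour per code (0.32), and was called in 41 of the 45 fits that leave out 1 tumour. Nrg1 was tied to no list over the 45 tumours, with its highest r for the squamous list (0.36) and its lowest for the nerve list (-0.28). Within the larger set the r with the squamous list was 0.51 and called.

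**Figure D4:**
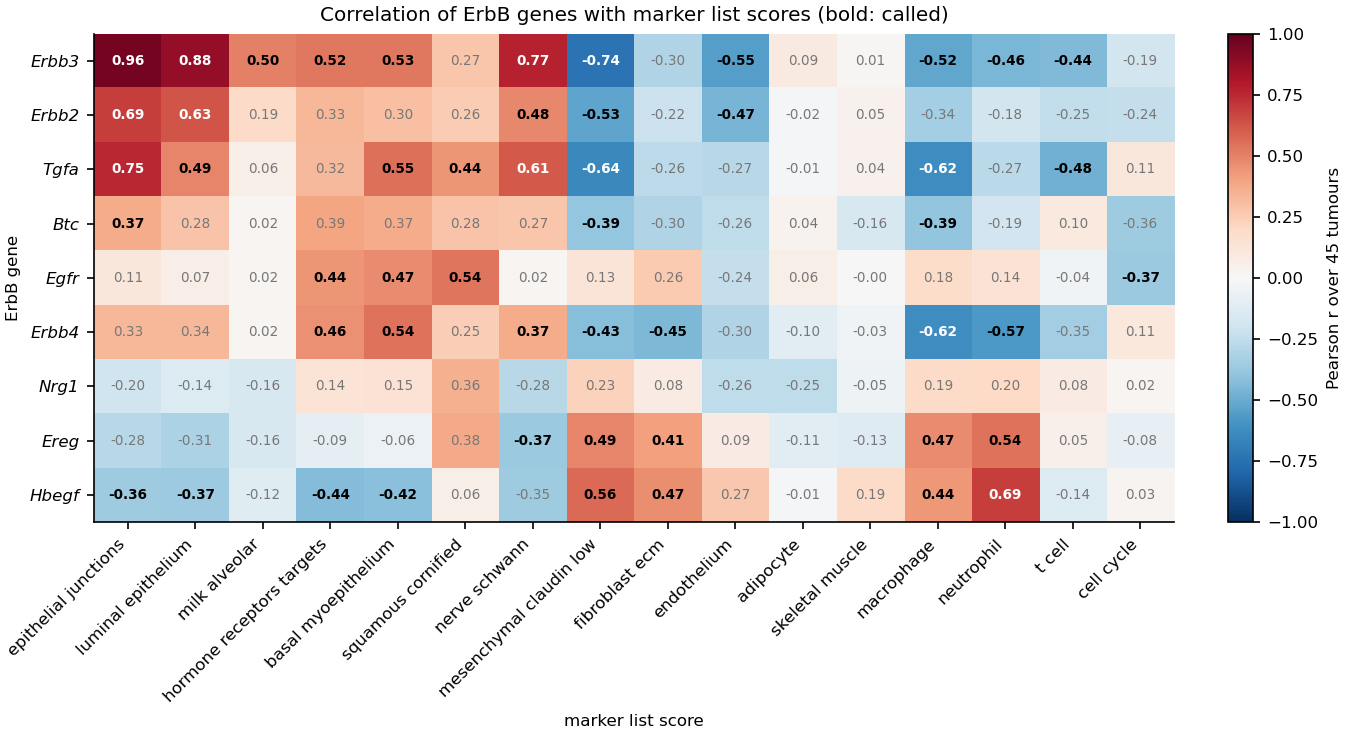
Pearson r over 45 tumours (colour and number) between each measured ErbB gene (rows) and each marker list score (columns), with called relations in bold. Erbb3, Erbb2 and Tgfa share high values with the junction list, and Hbegf and Ereg share high values with the neutrophil and mesenchymal lists. With the luminal list Erbb3 and Erbb2 reach 0.88 and 0.63. Tgfa has 0.49 there (-0.10 in the larger set), below its values with the basal (0.55) and nerve (0.61) lists.

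The single genes most like each ErbB gene over the 45 tumours are given as a description. For Erbb3 they were the epithelial transcription factor gene Ehf (r 0.95), Cdh1 for E-cadherin (0.94) and the splicing factor gene Esrp1 (0.94), all members of the luminal or junction lists. For Tgfa they were Grhl2, a transcription factor gene of epithelial junctions (0.83), Fermt1 (0.81) and Cdcp1 (0.80). For Erbb2 they were Glt28d2 (0.81), Fam160a1 (0.80) and Mpzl3 (0.79). For Egfr they were Postn, which encodes the matrix protein periostin (0.67), Klf4 (0.66) and C1s1 (0.64).

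For Hbegf they were the metalloproteinase genes Mmp13 (0.77) and Mmp9 (0.76) and Plaur, the urokinase receptor gene (0.77). For Ereg they were Ugcg (0.73), Mapk6 (0.72) and the hypoxia factor gene Hif1a (0.71). Btc was nearest to Ly6g6e (0.63), Zbtb7c (0.62) and Rab3d (0.62), Nrg1 to Nipal1 (0.66), Cfap300 (0.66) and Yap1 (0.64), and Erbb4 to Ndp (0.72), Cdkal1 (0.71) and Ptn (0.69). The share of genes tested with an r beyond 0.5 in either direction was 16.5% for Erbb3, 12.3% for Tgfa and 6.75% for Erbb2, against 0.98% for Btc and 1.36% for Nrg1.

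The promoters of Erbb2 and Tgfa are shown because these genes were low together where the junction genes were low, and that of Egfr for comparison. Each line gives the 250 bases before the annotated start, 5′ to 3′ on the plus strand, from RefSeq on GRCm38.p6. Erbb2 lies at chr11:98412234-98412483, Tgfa at chr6:86194972-86195221 and Egfr at chr11:16751953-16752202. Capitals mark a CAGGTG box, the E-box bound by Snail and Zeb repressors, and GCCNNNGGC, the AP-2 motif.
Erbb2: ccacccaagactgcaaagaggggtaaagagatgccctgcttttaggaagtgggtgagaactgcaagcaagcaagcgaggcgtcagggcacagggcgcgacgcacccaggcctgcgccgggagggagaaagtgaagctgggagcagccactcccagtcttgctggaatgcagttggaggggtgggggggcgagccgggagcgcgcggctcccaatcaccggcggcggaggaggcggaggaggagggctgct
Tgfa: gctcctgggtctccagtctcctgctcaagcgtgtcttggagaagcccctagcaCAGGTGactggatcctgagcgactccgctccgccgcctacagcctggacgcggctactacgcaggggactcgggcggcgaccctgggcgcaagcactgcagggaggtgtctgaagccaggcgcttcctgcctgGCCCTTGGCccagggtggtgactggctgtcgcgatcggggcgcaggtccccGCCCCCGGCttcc
Egfr: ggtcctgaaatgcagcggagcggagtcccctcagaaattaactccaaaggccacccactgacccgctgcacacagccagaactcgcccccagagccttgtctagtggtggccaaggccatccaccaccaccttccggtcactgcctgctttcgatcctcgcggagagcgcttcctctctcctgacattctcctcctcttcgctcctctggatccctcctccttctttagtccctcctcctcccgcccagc
Both strands were searched for these motifs, for the Grainyhead motif AACCGGTT and for the AP-1 motif TGANTCA, and no match overlapped another. Counting -1 as the last base before the gene's start, the E-box of Tgfa begins at -197 and its AP-2 matches at -64 and -13. Of the 32851 promoters of this length in the table, 17.2% hold the E-box, 13.7% the AP-2 motif, 0.116% the Grainyhead motif and 6.75% the AP-1 motif. The windows of Erbb2 and Egfr hold none of these letters. Windows of 6 of the 10 genes were searched. Erbb3, Ereg and Nrg1 had no entry, and Hbegf was left out of the search. The E-box letters also occur once in the window of Btc and once in that of Areg.

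Genes that neighbour the ErbB genes on their chromosomes were also compared, in a family of 57 relations with up to 5 annotated genes on either side, of which 12 were called. Ereg with Btc enters this family from either side. The weakest called r was 0.47, and the share of all gene pairs at that r was not computed. Of all pairs of genes tested, 14.0% had an r of 0.37 or further from 0. Whether position plays a part was not tested. Erbb2 sits in a cluster that is co-amplified with it in human breast cancer. It went with Pgap3 (r 0.67), Mien1 (0.63) and Grb7 (0.75), the 3 called neighbours, and each was called in the larger set too (0.61, 0.68 and 0.79). Stard3 (0.27), Ppp1r1b (0.30) and Ormdl3 (0.17), farther out, were not called. Grb7, an adaptor that binds ErbB tails, itself had an r of 0.95 with the junction score, and Mien1 and Pgap3 had 0.37 and 0.47. Gene copy number was not measured in these files.

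Ereg and Btc lie in a ligand cluster next to chemokine genes. Ereg went with the neighbouring ligand gene Epgn (r 0.56, larger set 0.63) and with the neutrophil chemokine genes Cxcl1 (0.59, larger set 0.60) and Cxcl2 (0.60, larger set 0.69), all called in both. It did not go with Btc (-0.21, not called), which lies in the same cluster and went with Parm1 on its other side (0.54, called in both). For Erbb3 none of the 7 neighbours that passed the filter was called, and for Egfr none of 8.

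Scores of 3 pathway lists were set against the ErbB genes in a further family of 27 relations, with 8 called. No such count was made for all genes. With the sheddase score, 10.4% of other tested genes outside the list exceeded Hbegf and 14.9% exceeded Ereg, and 17.4% ran further against it than Erbb2. For Hbegf the share was 2.05% with the ERK targets and 2.69% with the negative regulators. Hbegf followed the ERK target list (r 0.44, larger set 0.53), the negative regulators (0.42, larger set 0.59) and the sheddases (0.53, larger set 0.53), each called in both. Over deviations from the group means the first 2 were no longer called (0.42 and 0.39), and the negative regulators were not called with 1 tumour per code (0.38). Ereg followed the sheddases (0.43, larger set 0.50, called in both). Erbb3 (-0.58), Erbb2 (-0.37) and Tgfa (-0.49) ran against the sheddases, but in the larger set these values were -0.06, -0.06 and -0.29 and none was called. Erbb4 ran against them in both (-0.63 and -0.61). Neither Egfr, Erbb2, Erbb3 nor Tgfa was called with the ERK target score. Plaur, the gene second nearest to Hbegf, is a member of the ERK list.

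**Figure D5:**
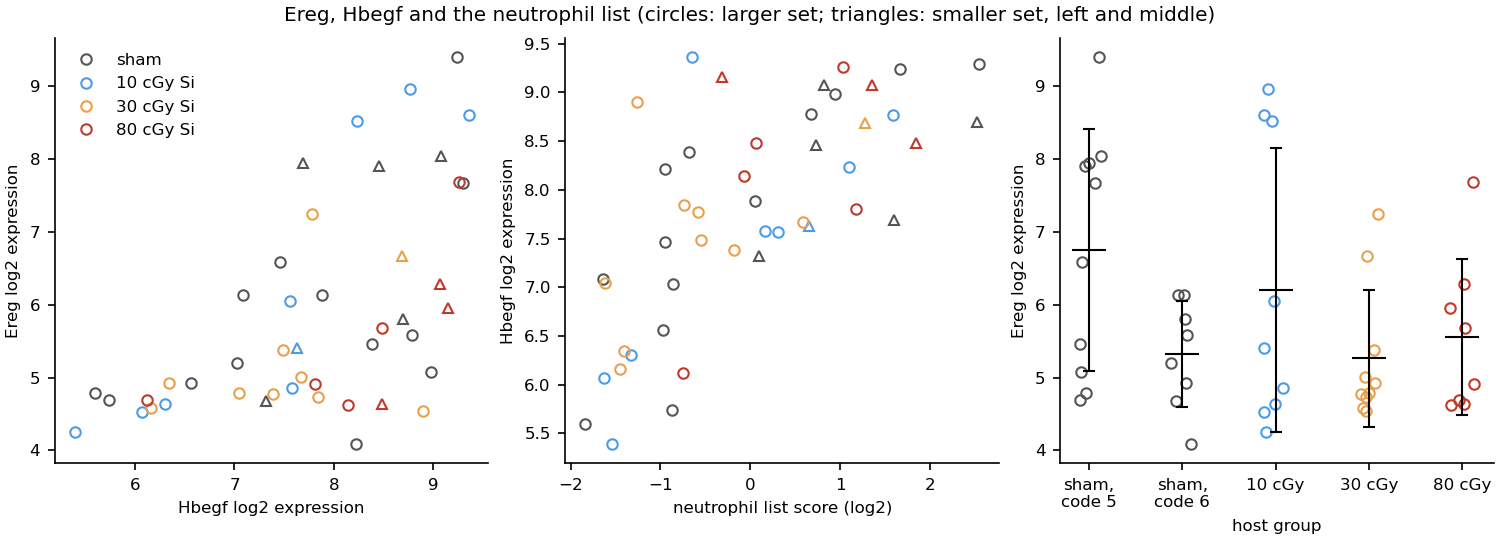
Log2 expression of Ereg against Hbegf (left), Hbegf against the neutrophil list score (middle) and Ereg by group with mean and SD in black (right), where sham tumours are divided by the first digit of their code. Ereg is high mainly where Hbegf is high, and sham tumours with code 5 average 6.76 against 5.32 with code 6.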

How the data were processed

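The deposited table gives log2 expression, which the authors obtained with RMA in the oligo package, per the submitters' processing notes (versions and genome build not given in the sources used here). Its 35556 probe sets were named from the platform annotation, and 21218 of them carried a single symbol. Where a gene had several single-symbol probe sets, the one with the highest mean was used.

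Groups were read from the sample titles. Group means of all 45 tumours were fitted with limma 3.58.1 (lmFit, eBayes) in R 4.3.3, without covariates, with p adjusted by Benjamini-Hochberg over 12123 genes and a threshold of 0.05, two-sided. Correlations used 100000 two-sided permutations in Python 3.11.15, adjusted within each family. With Areg unmeasured, the pairs numbered 36. The tests were checked on simulated data. The number of arrays limits the precision.

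The genes, lists and tests were chosen with earlier results of these data known. Named genes are all ErbB genes, for each the 3 genes of highest r and the marker lists of highest and lowest r, and in each pathway list the gene of smallest p. The pathway score and neighbour families were added after seeing the data. Alternatives covered filters, array weights, variance model, scaling, blocks, the sham tumours used and each tumour left out. Another took in the first principal component of the probe sets without a symbol. What that component measures was not tested.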

Additional observations from a re-analysis of the deposited data

Results flagged for a closer look

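Of the 27 dose groups tested, 9 genes in 3 groups each, 2 held a tumour far from the others, where chance flags about 1 group in 20. Erbb3 in the 10 cGy group stood at 4.42 in replicate 1, and the nearest of the other 8 tumours was at 8.02. This tumour also had the lowest junction score of all, at -3.01. Hbegf in the 80 cGy group stood at 6.11 in replicate 7, and the nearest of the other 7 tumours was at 7.81.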

How the results depend on the processing

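No ErbB gene was called in any host comparison under any of the alternatives run, the replicate block included. With array weights limma called 30 of all genes at 80 cGy against sham and 2 in the F test over the 4 groups. Same-numbered tumours did not deviate together (median correlation -0.07), so the numbers were not taken as pairs. With the replicate block the count of ErbB genes called stayed at 0 in each comparison, the Ereg difference of irradiated hosts was -1.07, and limma called 6 of all genes there. Without the sham tumours of code 5 the difference changed sign for Egfr (0.35), Ereg (0.36), Hbegf (0.062) and Btc (-0.00107), and with array weights for Tgfa (0.061). Of the other pathway genes named, Lancl2 changed sign without the sham tumours of code 5 (-0.15), and Adam9 with array weights (-0.0295), with the replicate block (-0.032) and without the sham tumours of code 6 (-0.075). With single tumours left out it ran from -0.13 to 0.024 for Egfr, changing sign without sham replicates 3, 7 or 9 or 10 cGy replicate 1, and from -0.24 to 0.0027 for Hbegf, changing sign without 80 cGy replicate 7. The causes were not tested.

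The called ErbB pairs numbered 10, and 5 with 1 tumour per code, 6 without muscle-rich or fat-rich tumours and 2 in the larger set, which has fewer tumours. The range with single tumours left out was 7 to 11. Called relations with marker lists fell from 51 to 13 in the larger set (40 to 59 with single tumours left out), and those with pathway scores from 8 to 5 (7 to 10). Among the called pairs and each gene's marker lists of highest and lowest r, 1 relation became called in the larger set and 17 lost their call. Other relations named above are not in this count. Some of them also lost their call, such as Egfr with the hormone receptor list and Erbb3 with the sheddases. Erbb4 and Btc lie near the low end of the signal, where arrays resolve differences poorly. The same limit holds for Ereg, with a median of 5.37 and 19 tumours above the table median.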

Other observations

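The pair of tumours most alike over the 12123 genes tested came from different host groups, 10 cGy replicate 1 and sham replicate 16 (r 0.98). Both had low Egfr, Erbb2, Erbb3 and Nrg1. They also had the highest endothelium scores of all tumours, at 3.06 and 3.00, where the next highest tumour reached 0.99. Their luminal scores of -3.10 and -2.53 were the lowest of all. Erbb3 was 4.42 and 5.22, Erbb2 7.16 and 7.53, Egfr 7.31 and 7.75, and Nrg1 5.26 and 5.01 in the former and the latter, and these were the lowest 2 Nrg1 values of all 45 tumours.

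In the 10 tumours of low junction score Hbegf ran the opposite way from the others. There its r was 0.75 with Erbb3, 0.67 with Erbb4 and 0.85 with the luminal list, against -0.34, -0.38 and -0.39 in the 35 tumours of the larger set. Egfr in the same 10 tumours had an r of 0.78 with Erbb2 and 0.66 with Erbb3, against -0.22 and -0.22. These sets were defined from the data, and the differences between them were not tested. Within the 10 tumours, Egfr, Erbb2 and Hbegf were all lowest in sham replicate 16 and in replicate 1 at 10 cGy. Egfr stood at 7.75 and 7.31 there, Erbb2 at 7.53 and 7.16, and Hbegf at 7.32 and 7.63. The r values of the 10 tumours may thus rest largely on these tumours, and r without them was not computed.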
